A study of Mus musculus with 104 samples.

Results

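The genes of mitochondrial ribosomal proteins were examined in mouse muscle stem cells (satellite cells) across age, diet and time of day. Members were all genes whose only annotated symbol begins with Mrpl or Mrps followed by a number, with the probe set of highest mean over all arrays taken for each gene. The rule found 73 genes among 17097 with a symbol, and 72 of these passed a filter on dim probe sets that left 11853 genes for testing. The exception was Mrpl15, whose probe sets lay below the filter. The 72 comprised 45 Mrpl genes of the large subunit and 27 Mrps genes of the small subunit. Mrps36 matches the rule by its symbol, although its product is now known as a component of the 2-oxoglutarate dehydrogenase complex. Genes entered by symbol and not by a rhythm or a difference between arms, but the probe set of each gene was chosen by its mean, so the levels given below are a description.

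Mitochondrial ribosomes translate the few messenger RNAs of the mitochondrial genome, which encode core subunits of the respiratory chain and the ATP synthase. Their RNA is made in the mitochondrion, whereas all of their proteins are encoded in the nucleus, made in the cytosol and imported. Some of these proteins descend from those of bacterial ribosomes and others were added during the evolution of mitochondria. Satellite cells are the resident stem cells of skeletal muscle and are mostly quiescent in undamaged muscle.

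All mice carried the Per1-Venus transgene, a reporter on a bacterial artificial chromosome, on a C57B6/J background. The 4 arms were adult mice on control diet without limit (22 arrays), adult mice under calorie restriction, CR (32 arrays), aged mice on control diet (24 arrays) and aged mice under CR (26 arrays). CR animals received 30% less food for 25 weeks after 3 weeks of stepwise adaptation, and adaptation began at an age of 19 to 29 weeks in adult and 55 to 69 weeks in aged mice. RNA was sampled at T0, T4, T8, T12, T16 and T20 (hours), with 4 to 6 arrays for each arm and time except adult control at T20, which had 1.

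The 22 arrays titled adult control bear an age tag of 83 to 97 weeks, which is that of the aged mice. The 32 adult CR arrays bear a tag of 47 to 57 weeks. Titles were used here, so the age comparison within the control diet rests on titles that the tags contradict, and so does the diet comparison in adult cells. All 11 muscle stem cell markers looked for passed the filter, with Pax7 at 9.84, Myod1 at 10.6 and Sdc4 at 12.2 on the log2 scale. Myofibre markers were also detected, 9 of 12 passing, and their mean spanned 5.21 to 8.39 over the arrays, while the fast myosins Myh1, Myh2 and Myh4 did not pass. Some markers of other cell types were as bright as those of stem cells. Among them were Myh11 (11.04) and Acta2 (10.8) of smooth muscle, Dpt (10.8) and Dcn (10.5) of fibroadipogenic progenitors and Mbp (10.4) of Schwann cells. Others were dimmer, such as S100b (6.13) of Schwann cells and Pdgfrb (7.90) of pericytes. The measured markers of endothelium were Cdh5 (7.17), Tek (7.13), Pecam1 (5.43) and Kdr (4.70). Those of macrophages were Cd68 (7.91), Csf1r (5.13) and C1qa (4.89). Calcr (6.01) was the dimmest of the stem cell markers. The mean of 5 fibroadipogenic markers was 10.22 ± 0.14 for adult control, 10.03 ± 0.18 for adult CR, and 10.15 ± 0.17 and 10.03 ± 0.17 in the aged arms. That of 6 Schwann cell markers was 8.69 ± 0.39 and 8.63 ± 0.32 in the adult arms and 9.07 ± 0.33 and 8.91 ± 0.28 in the aged arms (SD). Their part in the results below was not tested. In such bulk samples, fewer cells of a type and less RNA per cell cannot be told apart. Within arms and times, the mean of the 72 members correlated with the means of 12 cell type marker lists at between -0.17 (erythroid) and 0.16 (macrophage) over 103 arrays, a description over arrays that share their processing.

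Signal varied widely among the members' probe sets, which is a property of probes as well as of transcripts and gives no order of abundance. The brightest probe sets were those of Mrpl19 (9.44 ± 0.23, log2, SD over all arrays), Mrpl48 (8.95 ± 0.32), Mrpl52 (8.80 ± 0.33) and Mrpl24 (8.64 ± 0.25). The dimmest that passed were those of Mrps31 (4.64 ± 0.27), Mrpl1 (4.79 ± 0.39), Mrpl47 (4.84 ± 0.20) and Mrpl46 (5.19 ± 0.21). Mrpl19, Mrpl24 and Mrpl1 have bacterial counterparts, whereas Mrpl46, Mrpl48, Mrpl52 and Mrps31 are specific to mitochondria. RMA compresses differences near the floor, so changes of the dimmest genes are understated.

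Averaged over the 72 members, the arms lay close together. The member mean in adult cells was 6.82 ± 0.12 on control diet (SD, n = 22 arrays) and 6.86 ± 0.11 under CR (n = 32). In aged cells it was 6.83 ± 0.12 (n = 24) and 6.87 ± 0.11 (n = 26). Arrays of the 4 arms overlapped throughout, from 6.59 to 7.17. The differences between arms were therefore smaller than the spread between arrays of an arm.

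The first comparison asked whether CR altered the level of these genes, taken as the difference of fitted day means. In adult cells, 1 of 72 members passed, Mrps35, a mitochondria-specific protein of the small subunit, and it was higher under CR. Over all genes tested, 1.05% were called in this comparison and 1.39% of members, so the share of members lay near the background. The median difference was 0.04 over members and 0.01 over all genes, with 49 of 72 members (68.1%) and 53.1% of all genes above 0 (limma moderated test, Benjamini-Hochberg over 11853 genes, 5%).

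Mrps35 had a level from 5.24 to 6.19 with a median of 5.52 in the 22 adult control arrays, and from 5.42 to 6.35 with a median of 5.79 in the 32 adult CR arrays. The ranges overlap, but group means were higher under CR at each of the 6 times, at T0 5.97 against 5.41, at T4 5.82 against 5.65, at T8 5.96 against 5.75, at T12 5.70 against 5.61, at T16 5.83 against 5.51 and at T20 5.74 against 5.25 on its 1 array. The fitted difference was 0.29 ± 0.07 on the log2 scale (SE), a 1.22-fold higher day mean (limma adjusted p = 0.0187). In aged cells the same gene had 5.03 to 5.87 in control (median 5.65, n = 24) and 4.79 to 6.51 under CR (median 5.70, n = 26). That difference of 0.12 was not called, and no member passed the test of the interaction between age and diet. The next members by p in adult cells were Mrpl57 (0.25 ± 0.10, limma adjusted p = 0.201) and Mrpl13 (0.25 ± 0.10, limma adjusted p = 0.207), neither of which passed.

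**Figure D1:**
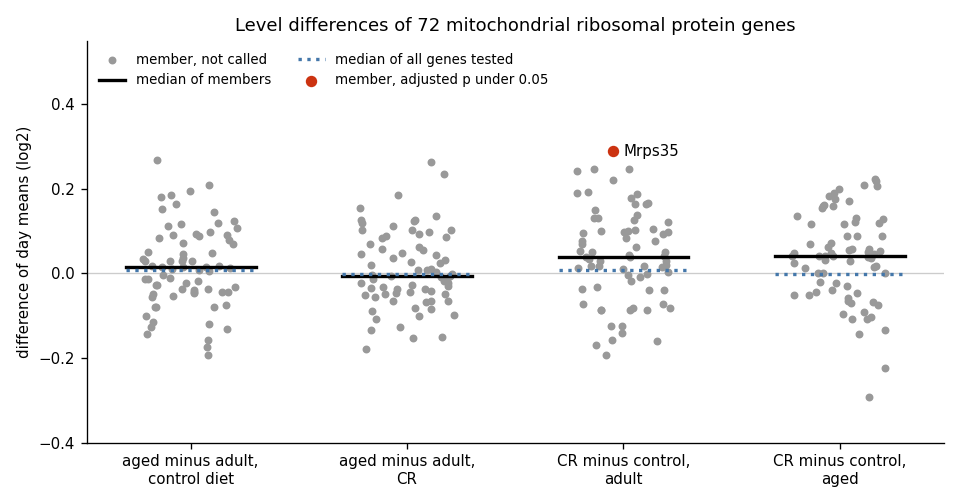
Difference of day means on the log2 scale for the 72 members in the 4 comparisons of arms, each point 1 gene, with the median of members as a black line and that of all 11853 genes as a dotted line. Mrps35 in adult cells (0.29) is the single member past the threshold, and both medians lie near 0 throughout.

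**Figure D2:**
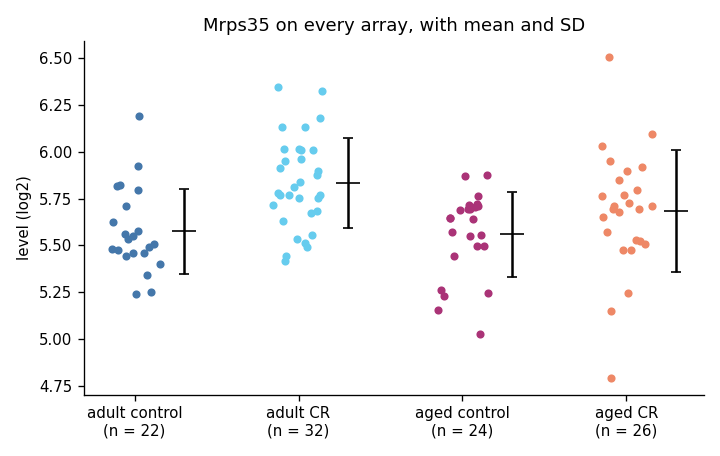
Level of Mrps35 (log2) on every array of the 4 arms, with the mean and SD beside the points. Adult CR arrays (mean 5.83) lie higher than adult control arrays (mean 5.58) with overlap, and the aged arms have means of 5.56 and 5.68.

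In aged cells, CR gave 0 of 72 called members, against 2.29% of all genes. The median over members was 0.04 and over all genes -0.0016, 50 of 72 members (69.4%) were above 0, against 49.2% of all genes, and 6.94% of members had an unadjusted limma p under 0.05, against 15.4% of all genes. Members with the smallest p were Mrpl50 (-0.22 ± 0.09, limma adjusted p = 0.152), Mrpl38 (0.21 ± 0.09, limma adjusted p = 0.207) and Mrpl36 (-0.29 ± 0.13, limma adjusted p = 0.243). The level interaction of age and diet was called in 0 of 72 members and in 0% of all genes, with 4.17% of members and 7.66% of all genes at an unadjusted limma p under 0.05. Its smallest limma adjusted p among members was 0.616, for Mrpl13.

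Age was compared within each diet. In the control diet 0 of 72 members passed, against 0.422% of all genes, and 4.17% had an unadjusted limma p under 0.05, against 10.3% of all genes. Under CR, where titles and tags match, 0 of 72 passed as well, against 1.94% of all genes, with 6.94% of members and 14.3% of all genes at an unadjusted limma p under 0.05. Medians over members were 0.01 and -0.01 on the log2 scale, and single members ranged from -0.19 to 0.27 and from -0.18 to 0.26. Mrpl13 led in the control diet (aged minus adult 0.27 ± 0.10, limma adjusted p = 0.291) and Mrpl16 under CR (0.26 ± 0.09, limma adjusted p = 0.106). Next came Mrps12 (0.19 ± 0.09, limma adjusted p = 0.458) and Mrpl17 (0.16 ± 0.08, limma adjusted p = 0.471) in the control diet. Under CR these were Mrps35 (-0.15 ± 0.07, limma adjusted p = 0.246) and Mrpl18 (0.23 ± 0.12, limma adjusted p = 0.334).

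Diet was also compared in aged cells at each time alone, in a fit with a mean for each arm and time. No member passed at any of the 6 times. All genes were called in 1.74% at T0, 0.228% at T4, 0.287% at T8, 0.11% at T12, 0.152% at T16 and 0.169% at T20. Unadjusted limma p under 0.05 occurred in 18.1%, 20.8%, 1.39%, 2.78%, 4.17% and 9.72% of members in that order, against 16.5%, 10.2%, 12.6%, 8.26%, 7.99% and 11.99% of all genes. T4 was the time at which the member share was most above that of all genes, and this difference was not tested.

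At T4 the median difference over members was 0.18, against 0.02 over all genes, and 52 of 72 members (72.2%) were above 0, against 53.3% of all genes. The member mean at T4 was 6.74 ± 0.12 in aged control (SD, n = 4) and 6.93 ± 0.08 in aged CR (n = 4), and these ranges overlapped slightly, from 6.59 to 6.84 and from 6.82 to 7.01. In adult cells, whose diets were not tested by time, it was 6.73 ± 0.08 in control (n = 5) and 6.88 ± 0.10 under CR (n = 6). Both control arms had a higher member mean at T0 and at T8, with 6.87 and 6.89 in adult and 6.90 and 6.93 in aged cells.

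Mrpl27, a large subunit protein with a bacterial counterpart, had the smallest p at T4. Its levels were 5.82, 5.87, 6.40 and 6.84 in aged control and 6.99, 7.29, 7.50 and 8.22 in aged CR, with no overlap between the groups. The difference was 1.27 ± 0.39 (SE) and did not pass (limma adjusted p = 0.155). Mrps23, a mitochondria-specific protein of the small subunit, came next by p with a difference of 0.73 ± 0.23 (limma adjusted p = 0.176). Mrpl35, which has a bacterial counterpart, came after it with 0.88 ± 0.29 (limma adjusted p = 0.187). The levels of Mrpl35 were 4.42, 5.57, 5.81 and 6.52 in aged control and 5.99, 6.42, 6.51 and 6.90 in aged CR, so that 1 control array lay among the CR arrays. It passed when that array, replicate 3, was left out (limma adjusted p = 0.0383), in a range up to 0.638 over single omissions.

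Mrps11, a small subunit protein on the platform, had the smallest p at T0. Its levels were 6.68, 6.75, 6.83 and 7.34 in aged control and 6.16, 6.17, 6.27, 6.50 and 6.90 in aged CR. All but 1 CR array lay below the control arrays. Its difference of -0.50 ± 0.15 missed the threshold (limma adjusted p = 0.0595) and passed when the CR array at 6.90, replicate 5, was left out (adjusted p = 0.0129), in a range up to 0.254 over single omissions. At T8 the leading member was Mrpl50 (-0.64 ± 0.20, limma adjusted p = 0.127), at T12 Mrps35 (0.40 ± 0.16, limma adjusted p = 0.435), at T16 Mrps2 (-0.77 ± 0.22, limma adjusted p = 0.179) and at T20 Mrps14 (0.63 ± 0.28, limma adjusted p = 0.33).

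Daily rhythms were found in part of the members in each arm. A 24 h cosine curve was fitted, and its amplitude is how far the peak rises over the day mean (log2). In adult control, 5 of 72 members were rhythmic (6.94%, against 10.6% of all genes), and in adult CR 9 (12.5% against 22.4%). In aged control 8 were rhythmic (11.1% against 10.8%), and in aged CR 13 (18.1% against 16.5%). No test compared these shares with the background, and the adult control count ranged from 3 to 8 over the alternatives. Median amplitudes over members, called or not, were 0.17, 0.15, 0.16 and 0.17 in that order, and over all genes 0.14, 0.13, 0.14 and 0.14.

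The adult control count was 3 without T16 replicate 1. In aged control it was 4 without T12 replicate 2 and 5 without any of 7 others, namely T0 replicates 2 and 3, T4 replicate 3, T8 replicates 2 and 4, T12 replicate 3 and T20 replicate 3. With the mean of the 9 myofibre markers as a covariate it was also 4, and those markers' mean ranged from 5.21 to 7.76 over the aged control arrays. Without T20 the aged CR count was 5. The adult CR count ranged from 8 to 12 over the alternatives tried. Shares of all genes under these alternatives were not counted.

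Cytosolic ribosomal proteins and respiratory chain subunits were set beside the members. Of 65 cytosolic ribosomal protein genes tested, 0 were rhythmic in either control arm, while CR had 15 in adult and 27 (41.5%) in aged cells. The test of a rhythm difference with diet called 0 of these 65 genes in adult and 0 in aged cells. A rhythm called under CR but not in control is thus not a difference that passed. Nuclear genes of oxidative phosphorylation subunits, 83 tested, were called in 5, 15, 7 and 17 cases. Of the cytosolic family, 17 were higher under CR in adult and 5 in aged cells, against 1 and 0 members and against 65 and 143 of all 11853 genes. These differences between families were not tested.

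**Figure D3:**
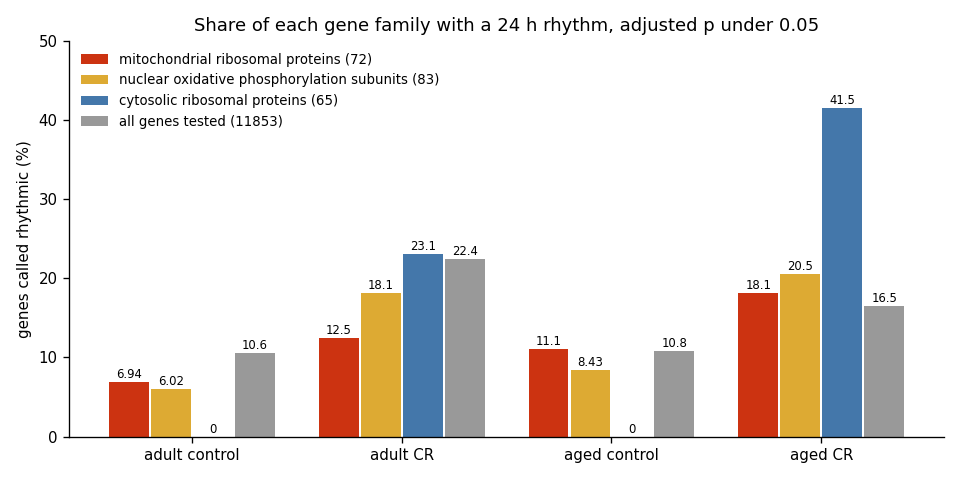
Percent of genes called rhythmic (limma, adjusted p under 0.05) in each arm for mitochondrial ribosomal proteins, oxidative phosphorylation subunits, cytosolic ribosomal proteins and all genes tested, with the number of genes in brackets. Members lie between 6.94% and 18.1%, while the cytosolic family ranges from 0% to 41.5%.

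Over the 4 arms there were 35 rhythm calls in 27 members. Of these members 19 were called in 1 arm and 8 in 2 arms, and 0 in 3 or 4. The same counts over all genes tested were not made, so no trait of the members is read from them. The 8 were Mrpl1, Mrpl4, Mrpl23, Mrpl32, Mrpl50, Mrpl52, Mrps5 and Mrps31. Their 2 fitted peaks lay between 0.0091 h (Mrpl23) and 3.88 h (Mrpl32) apart. Amplitudes of the called members ranged from 0.21 (Mrps31, adult CR) to 0.50 (Mrps33, aged CR), which is a 1.34-fold to 2.00-fold range from trough to peak.

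The 100 bases before the annotated start of 4 of these 8 genes show how their proximal promoters differ in letters (RefSeq, GRCm38.p6, given 5′ to 3′ on the gene's strand). Capitals mark matches on either strand to CGCANGCG, the core of the site of NRF1, or to CCGGAAG, a core of ETS factors such as GABP. Both factors are known regulators of nuclear genes for mitochondrial proteins.
Mrpl32, chr13:14613038-14613137, minus strand: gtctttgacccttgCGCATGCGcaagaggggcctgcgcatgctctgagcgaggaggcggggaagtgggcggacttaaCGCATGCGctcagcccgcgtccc
Mrpl52, chr14:54426809-54426908, plus strand: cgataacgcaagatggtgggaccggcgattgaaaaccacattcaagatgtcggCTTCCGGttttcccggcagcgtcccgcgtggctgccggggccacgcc
Mrpl1, chr5:96210015-96210114, plus strand: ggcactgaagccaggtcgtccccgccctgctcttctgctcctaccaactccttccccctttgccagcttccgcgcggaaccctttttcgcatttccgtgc
Mrpl23, chr7:142532932-142533031, plus strand: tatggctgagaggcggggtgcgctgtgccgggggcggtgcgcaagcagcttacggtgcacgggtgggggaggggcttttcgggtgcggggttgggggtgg
Mrpl32 holds the NRF1 core at a pair of places and Mrpl52 the ETS core, while Mrpl1 and Mrpl23 hold neither in these bases. Mrps5, Mrpl50 and Mrps31, whose bases are not shown, hold neither as well.

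In windows from 250 bases before to 50 bases after the start, 65 of the 73 members and 9496 of the 11853 genes tested had an entry by gene number. CCGGAAG was found in 23 of the 65 (35.4%) and in 17.8% of tested genes. AANATGGC, a core of the YY1 site, was found in 20 (30.8%) against 9.53%, and CGCANGCG in 18 (27.7%) against 17.2%. The E-box CACGTG, which clock activators bind, was in 4 (6.15%) against 11.6%, and the cyclic AMP element TGACGTCA in 2 (3.08%) against 3.33%. Over all 32851 windows the shares were 8.86%, 6.05%, 8.21%, 7.15% and 1.79% in the same order. The 5 motifs were searched on both strands. These are matches of letters only, and binding at these sites was not measured.

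Mrpl52, a mitochondria-specific protein of the large subunit, had the smallest p of any member in adult CR. Its levels there were 8.90, 8.98, 9.11, 9.55, 9.57 and 9.65 at T4 and 8.30, 8.31, 8.45, 8.55 and 8.70 at T16, and these groups did not overlap. The fitted curve peaked at 3.69 h ± 0.64 (SE) with an amplitude of 0.40 ± 0.07, a 1.74-fold range (limma adjusted p = 1.73e-05). In adult control it peaked at 4.66 h ± 1.11 with an amplitude of 0.29 ± 0.08 (limma adjusted p = 0.0237). In aged CR it had a fitted peak at 4.52 h with limma adjusted p = 0.0504, and in aged control at 1.52 h with adjusted p = 0.306, so neither passed. The 3 probe sets of Mrpl52 above the filter peaked between 2.70 h and 3.69 h in adult CR.

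Mrpl1 belongs to the L1 stalk, from which spent transfer RNA leaves the ribosome. Its levels in adult CR were 4.72, 4.92, 4.94, 5.04, 5.11 and 5.54 at T4 and 4.18, 4.32, 4.43, 4.54 and 4.72 at T16, the groups meeting at 4.72. The curve peaked at 2.95 h ± 0.80 with an amplitude of 0.38 ± 0.08 (limma adjusted p = 0.000662). In aged CR its levels were 4.88, 5.19, 5.21 and 6.02 at T4 and 4.21, 4.25, 4.33 and 4.58 at T16, with no overlap, and it peaked at 3.63 h ± 0.86 with an amplitude of 0.38 ± 0.09 (limma adjusted p = 0.00404). The control arms had fitted peaks at 2.77 h and 4.07 h, with limma adjusted p = 0.0632 for adult and 0.0961 for aged mice. Mrpl1 is near the floor of the scale, and its 2 other probe sets lay below the filter.

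**Figure D4:**
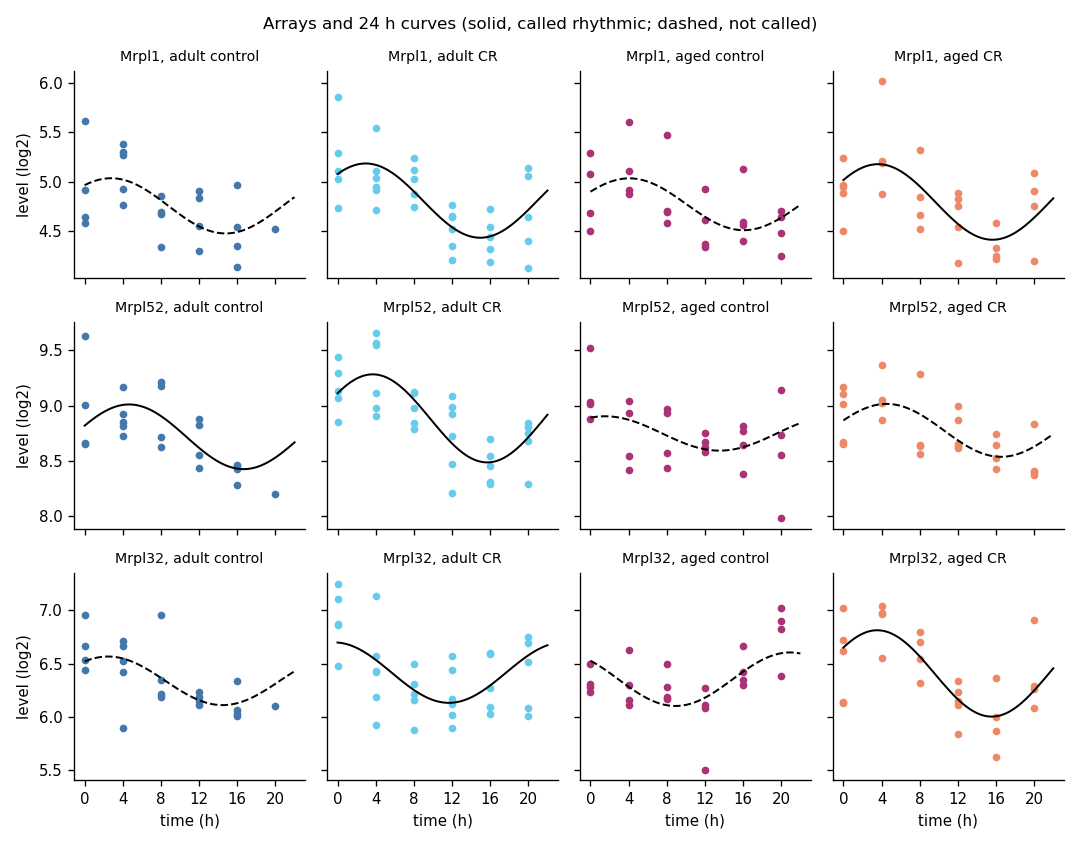
Level (log2) of Mrpl1, Mrpl52 and Mrpl32 on every array against time of day (h) in the 4 arms, with the fitted 24 h curve drawn solid where called and dashed where not. Called curves of Mrpl1 (both CR arms) and Mrpl52 (both adult arms) peak between 2.95 h and 4.66 h. Mrpl32 has a called peak at 3.54 h in aged CR and a fitted peak at 20.9 h in aged control that was not called.

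Several other proteins with bacterial counterparts were rhythmic. Mrps5, a small subunit protein near the path of the messenger RNA, peaked at 4.27 h ± 0.68 in adult CR (amplitude 0.39 ± 0.07, limma adjusted p = 6.75e-05) and at 2.79 h ± 1.03 in aged control (0.30 ± 0.08, limma adjusted p = 0.024). Its levels in adult CR were 5.98, 6.15, 6.32, 6.38, 6.45 and 6.63 at T4, above all 5 arrays at T16, which ran from 5.21 to 5.61. The 3 other passing probe sets of Mrps5 had fitted peaks at 6.51 h, 17.5 h and 21.9 h in adult CR and at 12.4 h, 17.2 h and 20.98 h in aged control, so they did not share these times. With the mean of probe sets both calls were lost (limma adjusted p = 0.0915 and 0.974), and the aged control call was also lost with arms of the comparison only and with time as 6 levels. Mrpl23, at the exit of the tunnel through which new chains leave, peaked at 5.41 h ± 1.03 in adult CR and at 5.40 h ± 0.99 in aged control (limma adjusted p = 0.014 and 0.0187). Mrpl4, which lines that tunnel, peaked about the other end of the cycle, at 18 h ± 1.07 in adult control (limma adjusted p = 0.0448) and at 17.5 h ± 1.07 in aged CR (limma adjusted p = 0.0384). The adult control call of Mrpl4 was lost in 13 of 22 omissions of a single array.

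Mrpl16, which lies near the site of peptide bond formation, led in aged control. It had 6.97, 7.53, 7.62 and 7.69 at T12 and 6.01, 6.55, 6.67 and 6.89 at T0, with no overlap. Its curve peaked at 12.5 h ± 0.89 with an amplitude of 0.42 ± 0.10 (limma adjusted p = 0.00693). Mrpl2, a central large subunit protein, peaked nearby at 11.8 h ± 1.02 (limma adjusted p = 0.0223) and Mrpl57 at 11.2 h ± 1.09 (limma adjusted p = 0.0349). The other aged control calls were Mrps22 at 1.45 h, Mrpl49 at 4.00 h and Mrps7 at 19.9 h. Those of Mrps7 and Mrpl49 were lost in 17 and 16 of 24 single omissions.

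Further members called in the adult arms were in part mitochondria-specific and in part had bacterial counterparts. Mrps31 peaked at 15.6 h ± 1.17 in adult control and at 17.3 h ± 1.08 in adult CR (limma adjusted p = 0.0207 and 0.0204). Mrpl50 peaked at 2.68 h in adult control and at 0.17 h in aged CR (limma adjusted p = 0.0236 and 0.00636), but its second probe set, also above the filter, had fitted peaks at 13.9 h and 18.7 h. In adult CR, Mrpl41 peaked at 10.7 h, Mrps10 at 10.1 h and Mrpl48 at 0.63 h, and in adult control Mrpl13 at 11 h (limma adjusted p = 0.016). The second passing probe set of Mrpl13 had a fitted peak at 2.77 h there. In adult CR the other passing probe sets had fitted peaks at 13.2 h and 16.3 h for Mrpl41, 0.32 h for Mrps10 and 11.6 h for Mrpl48. The calls of Mrps10 and Mrpl48 were lost with the mean of probe sets (limma adjusted p = 0.336 and 0.646). Mrps10 and Mrpl13 have bacterial counterparts, Mrpl41 and Mrpl48 do not.

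Aged CR had 13 calls, and 5 without T20, where adult CR had 10. How many of all genes passed without T20 was not counted. Beside Mrpl1, Mrpl32, Mrpl50 and Mrpl4, the 13 included Mrps36 at 8.87 h ± 0.88 (amplitude 0.22 ± 0.05, limma adjusted p = 0.00418). They also included Mrps24 at 7.56 h ± 0.90, Mrps33 at 6.82 h ± 0.99, Mrps16 at 13.8 h ± 1.13 and Mrpl30 at 9.02 h ± 1.09. Mrps21, Mrps25, Mrpl14 and Mrpl44 made up the 13, at 4.65 h, 23.2 h, 9.13 h and 13.4 h. Other passing probe sets had fitted peaks at 12.3 h and 12.1 h for Mrps25, 16.7 h for Mrpl14 and 3.12 h for Mrpl30, apart from those used. The other passing probe set of Mrpl44 had a nearby fitted peak at 14.4 h, but an amplitude of 0.06 against 0.49. The calls of Mrps16, Mrpl30 and Mrps33 were lost in 4, 3 and 1 of 26 single omissions. That of Mrps24, which has another passing probe set, was lost in 1 of 13 alternatives (limma adjusted p = 0.42). Of the 13 peaks, 5 lay between 20 h and 6 h and 8 between 6 h and 20 h. The corresponding counts were 2 and 3 for adult control, 6 and 3 for adult CR, 4 and 4 for aged control. These spans of the day differ in length, and the spread of peaks was not tested. In adult CR the 6 lay from 23.7 h (Mrpl32) to 5.41 h (Mrpl23).

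**Figure D5:**
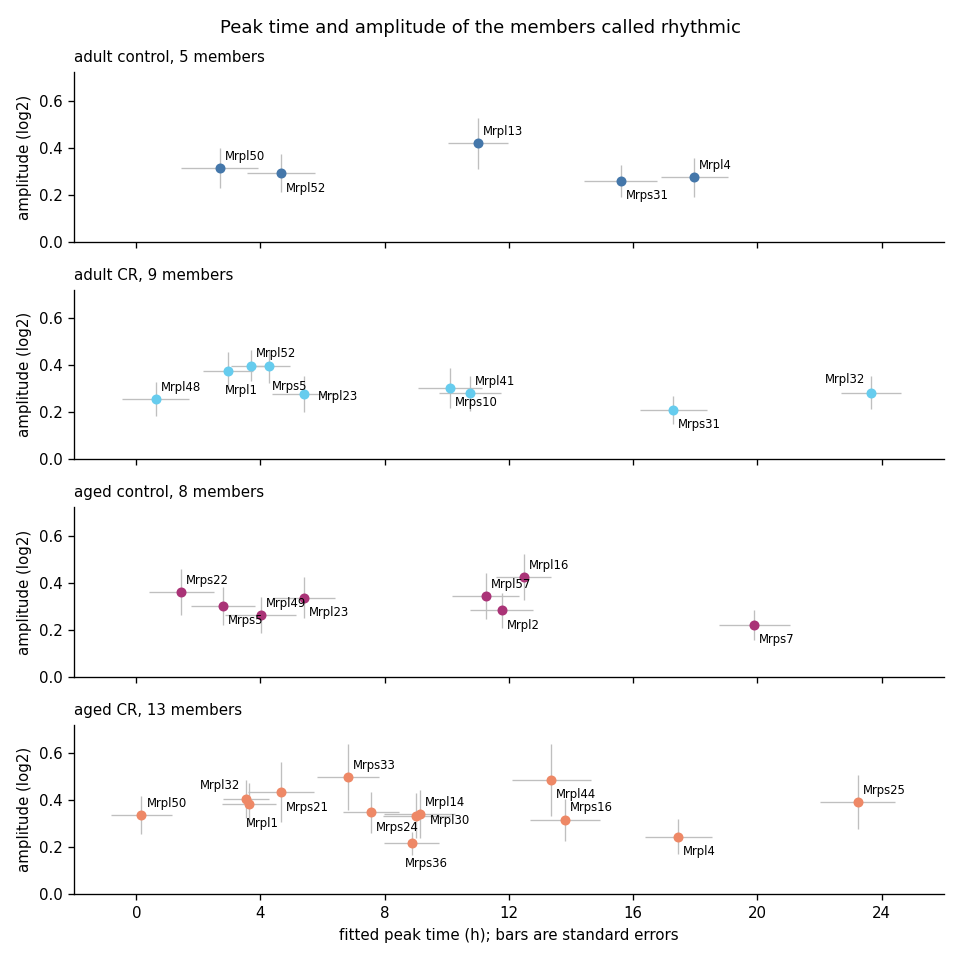
Fitted peak time (h) and amplitude (log2) of each member called rhythmic in each arm, with standard errors as bars. Amplitudes lie between 0.21 and 0.50. Of the 9 adult CR peaks, 6 lie between 20 h and 6 h and 3 between 6 h and 20 h.

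By class, the large subunit had 4, 6, 5 and 7 rhythmic genes of 45 in the 4 arms as ordered above. The small subunit had 1, 3, 3 and 6 of 27. The 27 are Mrps genes by symbol, so they hold Mrps36, which is also among the 6 aged CR calls. Members with a bacterial counterpart had 2, 5, 5 and 8 of 40, and mitochondria-specific ones 3, 4, 3 and 4 of 30. The latter list holds Mrpl47, although that protein is related to a bacterial one, and also the S18 paralogues Mrps18a and Mrps18b. Among all genes 10.6%, 22.4%, 10.8% and 16.5% were rhythmic in these arms, and the classes were not compared by a test. The stalk proteins Mrpl10, Mrpl11 and Mrpl12, which recruit translation factors, were not rhythmic in any arm. The smallest limma adjusted p among them was 0.0739, for Mrpl11 in aged CR. Mrps18a and Mrps18b, the measured members of the S18 paralogues, did not pass either, with a smallest limma adjusted p of 0.0913 for Mrps18a in adult CR.

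Whether a rhythm differed between arms was tested on the curves themselves. Diet gave a rhythm difference in 1 of 72 members in aged cells, against 0.388% of all genes, and in 0 in adult cells, against 0.0253%. Age gave 0 in the control diet, against 0% of all genes, and 0 under CR, against 0.00844%. An unadjusted limma p under 0.05 occurred in 9.72%, 5.56%, 1.39% and 8.33% of members in that order, against 13.8%, 6.45%, 4.04% and 9.86% of all genes.

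The member that passed was Mrpl32, a large subunit protein with a bacterial counterpart, known to be matured by the m-AAA protease before it enters the ribosome. In aged control its levels were 6.38, 6.83, 6.90 and 7.02 at T20 and 6.11, 6.16, 6.30 and 6.63 at T4. In aged CR they were 6.08, 6.26, 6.29 and 6.90 at T20 and 6.56, 6.96, 6.98 and 7.04 at T4. The late times were thus high in control and the early times high under CR, with overlap of single arrays. The fitted peak lay at 20.9 h ± 1.25 in aged control (amplitude 0.25 ± 0.08, limma adjusted p = 0.0765 for its rhythm) and at 3.54 h ± 0.74 in aged CR (amplitude 0.40 ± 0.08, limma adjusted p = 0.000614). The difference of the curves had limma adjusted p = 0.039. It was lost in 20 of 50 omissions of a single array, with adjusted p up to 0.0822, 12 of them aged CR and 8 aged control arrays, and also without T20 (adjusted p = 0.15), with arms of the comparison only (0.0587) and with time as 6 levels (0.0772).

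In adult cells Mrpl32 had 6.44, 6.53, 6.66 and 6.96 at T0 in control and 6.47, 6.86, 6.87, 7.10 and 7.25 under CR. Its fitted peaks were at 2.46 h (limma adjusted p = 0.106) and 23.7 h (limma adjusted p = 0.00669). The order of the 2 fitted peaks was the reverse of that in aged cells, but the curves of both control arms were not called. Mrpl32 was not called for a rhythm difference with diet in adult cells. It did not pass for a rhythm difference with age either (limma adjusted p = 0.999 in the control diet and 0.319 under CR). The reversal itself was not tested. Next by p for a rhythm difference with diet in aged cells were Mrps24 (limma adjusted p = 0.21) and Mrpl49 (limma adjusted p = 0.237).

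Other genes of mitochondrial translation were counted from lists of the pathway. Of 7 measured translation factors, Mrrf, which recycles the ribosome after termination, fell by 0.38 ± 0.10 under CR in aged cells (limma adjusted p = 0.0258) and was lower by age under CR (-0.35 ± 0.09, limma adjusted p = 0.0296). Mtfmt, which formylates the initiator transfer RNA, was higher by age under CR (0.36 ± 0.11, limma adjusted p = 0.0495). The 5 others did not pass in any level comparison, and 0 of 7 were rhythmic in any arm. Of 19 assembly and RNA modification genes, 1 differed in level, the GTPase gene Mtg2, lower under CR in aged cells (-0.27 ± 0.08, limma adjusted p = 0.0332).

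Rhythms occurred in 1, 4, 1 and 5 of these 19 assembly genes, with the arms in the same order, in which all genes had 10.6%, 22.4%, 10.8% and 16.5%. Mrm1, a methyltransferase of the large ribosomal RNA, peaked at 17.2 h in adult control, 16.7 h in aged control and 13.2 h in aged CR. Malsu1, an assembly factor of the large subunit, peaked at 2.26 h in adult CR and 1.36 h in aged CR. Of 12 aminoacyl-tRNA synthetases, 2, 5, 1 and 1 were rhythmic, to be read against the same shares of all genes, and 0 differed in level. Of 11 genes of mitochondrial transcription and RNA upkeep, Polg2, the accessory subunit of the mitochondrial DNA polymerase, was 1.27-fold higher under CR in aged cells (0.34 ± 0.09, limma adjusted p = 0.0186), and 1, 2, 2 and 1 were rhythmic. Of 9 regulators, Yy1 was higher there (0.19 ± 0.06, limma adjusted p = 0.0444), and 0, 2, 0 and 2 were rhythmic. Of 4 mitoribosomal proteins with other names, Chchd1 was rhythmic in aged control.

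Members did not vary closely together from array to array. After removal of the mean of each arm and time, the median correlation over 2556 pairs of members was 0.09, from -0.40 to 0.62, over 103 arrays that share depth of labelling and scanning. The median was 0.47 over 2080 pairs of cytosolic ribosomal protein genes and 0.29 over 3403 pairs of oxidative phosphorylation genes, given as a description. The closest pair was Mrpl23 and Mrpl30 at 0.62, followed by Mrpl30 with Mrps33 at 0.57 and Mrpl30 with Mrps21 at 0.56.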

How the data were processed

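RNA of mouse muscle stem cells was measured on Affymetrix arrays. The labels' protocols give 25 ng of RNA as input, 17 cycles of amplification and 8 µg of cDNA for labelling. RMA is named in the submitters' processing notes as the origin of the deposited values, without a version. Their log2 scale was inferred from their range of 1.19 to 12.8. No header of the deposited values states the base.

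Arrays were grouped by title. No source used here gives the isolation gate. Probe sets with 1 symbol and a mean at or above the 40th percentile (log2 4.50) were kept, and the probe set of highest mean was used for each gene. One limma model (lmFit, eBayes; limma 3.58.1 under R 4.3.3) covered every array and gave each arm its own day mean, cosine and sine of 24 h, or with 24 group means for comparisons by time. Benjamini-Hochberg adjustment covered 11853 genes at 5%. Fits were tested on simulated data. The number of arrays limits the precision.

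Members, lists and tests were chosen with earlier results of these data known. The rule for named genes took the called members, up to 8 by smallest p in a comparison. Where fewer than 3 were called, it took the 3 of smallest p. It also took the 4 brightest and 4 dimmest members, stalk proteins, S18 paralogues and up to 3 called genes of each pathway list. Not all genes that the rule took in a comparison are named above. Arrays shown singly and the further aged CR calls were chosen after their values were seen. Promoter windows were matched by gene number, and the windows of 4 genes were chosen after their rhythms were seen. Alternatives were other filters, the mean of probe sets, arms of the comparison only, time as 6 levels, omission of T20, array weights, added quantile normalization, a replicate block, a residual component or myofibre markers as a covariate, and omission of each array.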

Additional observations from a re-analysis of the deposited data

Results flagged for a closer look

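Mrpl32 differed in rhythm between diets in aged cells by a test of the difference itself (limma adjusted p = 0.039). The call was lost in 20 of 50 omissions of a single array, and also with arms of the comparison only, time as 6 levels or T20 left out (adjusted p from 0.0225 to 0.15 over the alternatives).

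Single arrays stood apart from the others of their arm and time in 6 of 132 groups searched, about the share that chance gives (5% of groups). The gap to the nearest array, over the range of the group, exceeded Dixon's critical value. In adult CR at T20, replicate 4 was low in both Mrpl23 (7.60, the 4 others from 8.35 to 8.64) and Mrpl52 (8.29, the others from 8.68 to 8.84). In aged CR at T4, replicate 1 was low in both Mrpl32 (6.56, the 3 others from 6.96 to 7.04) and Mrpl50 (5.92, the others from 6.13 to 6.16). The member mean was low in aged control T12 replicate 4 (6.66, the others from 6.87 to 6.90). It was high in aged CR T20 replicate 3 (6.98, the others from 6.64 to 6.70).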

How the results depend on the processing

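Of the counts over members under the alternatives, 236 stayed within 1.5 times the main count and 17 did not. No named level difference changed sign. Rhythms and rhythm differences were judged by their call only, without a sign, so they could not be counted as reversed. Members rhythmic in adult control numbered 3 with the mean of probe sets or with arms of the comparison only, and 8 with time as 6 levels. With single arrays left out they numbered 3 to 7. Members rhythmic in aged control numbered 4 with time as 6 levels or the myofibre covariate, and 4 to 8 with single arrays left out. In aged CR they numbered 5 without T20. The rhythm difference with diet in aged cells was called in 0 members with arms of the comparison only, with 6 levels of time or without T20, and in 0 to 1 with single arrays left out. The level difference with diet in aged cells gave 1 member with the mean of probe sets. At T0 in aged cells 1 member passed with the mean of probe sets or with the first residual component, and 0 to 1 passed at T0 and at T4 with single arrays left out. The cause of these changes was not tested, and the share of all genes called under each alternative was not counted. The call of Mrps35 held under all alternatives run (limma adjusted p from 0.0124 to 0.0347).

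Replicate numbers are shared between diets. Deviations of 45 same-numbered pairs across diets correlated at a median of 0.04, from -0.23 to 0.29, and those of 173 other pairs at 0.00, so numbers were not taken as pairs. With a replicate block on the number as a fixed factor, rhythmic members numbered 5, 9, 7 and 12, and with age, time and number as a random replicate block 5, 9, 8 and 14. Neither block took any count beyond 1.5 times its main value. The tests by time were not run without T20. With time as 6 levels they are the same fit.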
